A study of Mus musculus with 8 samples.

Results

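The genes described here are 10 members of the Notch pathway: the receptors Notch1, Notch2 and Notch3, the ligands Jag1 and Dll1, the target genes Hes1, Hey1 and Heyl, the related repressor Hes6, and Numb, an inhibitor of the pathway. They were found by gene symbol in a table of read counts for 23420 genes, and all 10 were present and passed the filter on low counts that left 13167 genes for testing. The samples are C2C12 cells, mouse muscle precursors grown as a line, which stop dividing and form multinucleated myotubes in low serum. The cells were either WT or overexpressed AUF1, an RNA-binding protein encoded by Hnrnpd, and both kinds had been switched from medium with 10% FBS to DMEM with 2% HS for 48 h before collection. From each genotype, total RNA and a cytoplasmic fraction named High in the sample titles, read here as heavy polysomes (mRNAs loaded with many ribosomes), were sequenced, with 2 libraries in each of the 4 groups. The labels do not say how AUF1 was overexpressed, whether those cells were a pool or a clone, or whether the WT cells carried an empty vector. They also do not say whether a group's libraries are separate cultures, so the p-values reflect only how far these libraries spread, and that spread may be technical. No comparison includes cells kept in growth medium.

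Notch receptors sit in the cell membrane and are activated by Delta and Jagged ligands on a neighbouring cell. Ligand binding opens the receptor to ADAM proteases and then to gamma-secretase, and the released intracellular domain joins the DNA-binding protein RBPJ and a Mastermind coactivator to switch on target genes, chiefly repressors of the Hes and Hey families. In skeletal muscle the pathway is known for keeping satellite cells quiescent and for delaying the differentiation of myoblasts, and Numb limits it by promoting the endocytosis and degradation of the receptor.

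AUF1 is known to bind AU-rich elements in the 3′ untranslated regions (UTRs) of mRNAs. The 3′ UTRs of the 10 genes were therefore searched, on the sense strand, for the pentamer ATTTA and for the longer nonamer TTATTTATT, which contains the pentamer, in the GENCODE M21 annotation of the mouse genome build mm10. Jag1 held 10 pentamers in 1568 bases, a density above that of 96.4% of the 11958 genes searched, and Dll1 held 3 in 676 bases, above 91.2%. Notch1 held 4 in 1628 bases, Notch2 4 in 2917 bases, Notch3 2 in 1000 bases, Numb 3 in 1405 bases and Hey1 1 in 1137 bases. No pentamer was found in the annotated 3′ UTRs of Hes1, Heyl or Hes6. For comparison, 66.1% of all genes searched held at least 1 pentamer and 7.49% held the nonamer. Among the 10 genes the nonamer was found only in Notch1 and Jag1, and the stretches around it are shown for both. Each is printed 5′ to 3′ as the mRNA reads, with the nonamer in capitals. The first stretch lies on the minus strand at chr2:26459162-26459190, and its nonamer starts at base 351 of the Notch1 3′ UTR. The second stretch lies on the minus strand at chr2:137082540-137082568, and its nonamer starts at base 466 of the Jag1 3′ UTR. A match is a description of the letters and does not show that AUF1 bound there.
Notch1: taaatgctgtTTATTTATTgattgcttct
Jag1: aatgactttaTTATTTATTtttttttatt

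Each library held 25281224 to 34917660 counts assigned to genes, and the 10 genes had between 221 and 13383 counts in a library. Hnrnpd, the gene of AUF1, was at 64.2 and 99.6 CPM (reads of a gene relative to the library total, after TMM normalisation) in the WT total RNA libraries 1 and 2, against 448 and 397 in AUF1 total RNA. On polysomes it was at 106.5 and 130.7 CPM in WT and 549 and 427 in AUF1, so that all 4 AUF1 libraries lay above all 4 WT libraries. All 6 myoblast markers and all 5 myotube markers looked for were expressed above 1 CPM in every group, while all 6 endothelial and all 4 adipocyte markers were under 1 CPM. By group, 5 to 6 of 7 fibroblast and 3 to 5 of 5 mural markers exceeded 1 CPM in at least 1 library. Pdgfrb had a mean of 637 CPM and Col1a1 of 447 CPM in WT total RNA, examples chosen after their values were seen. Dpt, Pi16, Lum, Rgs5 and Myh11 exceeded 1 CPM in replicate 1 libraries only, as did Rgs5 on WT polysomes at 2.13 CPM against 0.0635 in replicate 2. The replicate number separated the libraries as well as the genotype. The first principal component, with 44.6% of the variance, split replicate 1 from replicate 2, and the second, with 37.1%, split AUF1 from WT. Each comparison of genotypes is therefore also given within each replicate number. Since these are bulk libraries, fewer cells of a kind and less RNA per cell cannot be told apart.

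**Figure D1:**
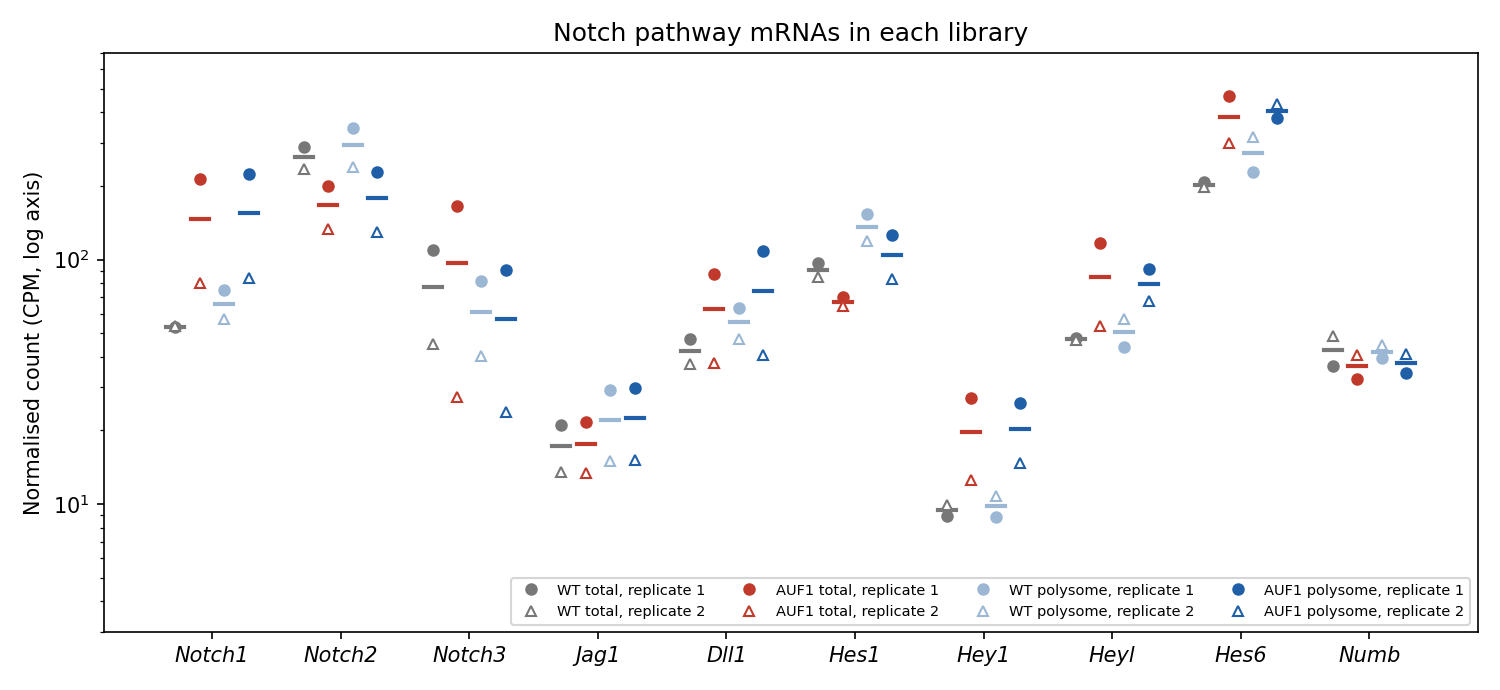
Normalised counts (CPM, log axis) of the 10 Notch pathway genes, with 1 point per library, circles for replicate 1, triangles for replicate 2 and a bar at the mean of the 2 libraries of a group. Notch1 stood at 214 CPM in replicate 1 and 80.1 CPM in replicate 2 of AUF1 total RNA, above both WT total RNA libraries at 52.9 and 53.5 CPM, whereas the Jag1 libraries of AUF1 and WT lay side by side.

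Per kilobase of annotated exon, the repressors Hes6 and Hes1 were the most abundant of the 10 mRNAs in every group. In WT total RNA the mean level of Hes6 was 112 CPM per kilobase and that of Hes1 was 44.5, followed by Notch2 at 24.3. In AUF1 total RNA Hes6 stood at 213 and Hes1 at 33.1 CPM per kilobase. In all 4 groups the 2 libraries of Hes6 lay above those of Hes1, and those of Hes1 above the next gene. Below Hes1, Notch2 came next in WT cells and was separated from its lower neighbour, Numb in total RNA and Dll1 on polysomes. In AUF1 cells the libraries of Heyl, Notch2, Dll1, Notch3, Notch1 and Numb overlapped from each gene to the next in total RNA. Hey1 and Jag1 had the lowest means per kilobase in every group. Their libraries overlapped each other in all groups but AUF1 total RNA, where Hey1 lay above Jag1.

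The first question was which of the 10 mRNAs differed between AUF1-overexpressing and WT cells. In total RNA 4 genes, Notch1, Hey1, Heyl and Hes6, were higher in both AUF1 libraries than in either WT library, and 2 genes, Notch2 and Hes1, were lower in both. On polysomes the same 4 were higher in both AUF1 libraries, and Notch2 was lower. These counts stand against 22.5% and 17.8% of all tested genes whose groups did not overlap in those directions in total RNA, and 23.6% and 21.3% on polysomes. By edgeR's quasi-likelihood test, adjusted over all 13167 genes, 0 of the 10 genes passed an adjusted p of 0.05 in total RNA, where 1.02% of all genes did. On polysomes 0 of the 10 passed, against 0.349% of all genes. At an unadjusted p under 0.05 the same test gave 2 of the 10 in total RNA, Notch1 and Hes6, and 0 on polysomes. Of all 13167 genes, 1807 in total RNA and 1862 on polysomes did so. DESeq2 called 0 of the 10 in both at an adjusted p under 0.05, against 6.72% and 6.5% of all genes. The median log2 difference of the 10 genes was 0.44 in total RNA, with 7 of 10 above 0, and 0.23 on polysomes, with 6 of 10 above 0, while that of all genes was 0.00 in both. The comparisons in total RNA and on polysomes use different libraries of the same numbered replicates.

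Among the receptors, Notch1 and Notch2 lay on opposite sides of WT in AUF1 cells. Notch1 is the receptor best known for holding back myogenic differentiation. It was at 52.9 and 53.5 CPM in WT total RNA and at 214 and 80.1 CPM in AUF1 total RNA (mean 147 ± 94.8, SD, n = 2, against 53.2 ± 0.421 in WT). Both AUF1 libraries lay above WT, but by unequal amounts, 4.05-fold in replicate 1 and 1.5-fold in replicate 2. The log2 fold change was 1.47 ± 0.61 (SE), with an adjusted p of 0.364 by edgeR's quasi-likelihood test. With the replicate number as a block in the same test, Notch1 alone of the 10 genes was called in total RNA, at 1.28 ± 0.36 and an adjusted p of 0.0478, in a fit that called 13.1% of all genes. That call was lost without replicate 1 of WT total RNA (log2 0.67, adjusted p 0.501) or without replicate 1 of AUF1 total RNA (log2 0.80, adjusted p 0.191). On polysomes Notch1 showed the same order, at 74.8 and 57.1 CPM in WT and 224 and 84.4 CPM in AUF1, which gave a log2 fold change of 1.23 ± 0.61 and an adjusted p of 0.442.

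Notch2, a receptor that acts with Notch1 in keeping satellite cells quiescent, was at 289 and 234 CPM in WT total RNA and at 199.6 and 134 CPM in AUF1 total RNA. Both AUF1 libraries lay below both WT libraries. The log2 difference was -0.53 within replicate 1 and -0.81 within replicate 2, and the fitted value was -0.65 ± 0.39 (adjusted p 0.554). On polysomes the levels were 347 and 240.1 CPM in WT and 229 and 129 CPM in AUF1, with a fitted log2 difference of -0.71 ± 0.39 (adjusted p 0.5). Of the 10 genes, Notch2 was the one with lower, non-overlapping AUF1 libraries in both kinds of RNA. The difference between the genotypes was more even across the replicate numbers for Notch2 than for Notch1, although neither difference passed the unblocked test. With the replicate number as a block, edgeR's test gave Notch2 -0.68 ± 0.22 (adjusted p 0.0739) in total RNA. On polysomes it gave Notch2 -0.74 ± 0.22 (adjusted p 0.054), and neither was called.

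Notch3, a receptor reported to act against Notch1 in muscle repair, gave no direction that held across replicates. It was at 109.6 and 45.2 CPM in WT total RNA and at 166 and 27.5 CPM in AUF1 total RNA. Within replicate 1 the AUF1 library was the higher by 0.60 on the log2 scale, and within replicate 2 it was the lower, at -0.71. The fitted difference was 0.32 ± 0.99 in total RNA and -0.09 ± 0.99 on polysomes, the widest standard errors of the 10 genes in both. The largest contrast in Notch3 was between the replicate numbers, which is described further on.

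The ligands showed no difference that exceeded the replicate spread. Jag1, a ligand for all the receptors named here, was at 21.0 and 13.5 CPM in WT total RNA and at 21.7 and 13.4 CPM in AUF1 total RNA. On polysomes the corresponding pairs were 29.2 and 15.0 CPM in WT and 29.9 and 15.2 CPM in AUF1. The AUF1 and WT libraries of the same number were nearly level, with log2 differences from -0.01 to 0.05 over both kinds of RNA. The fitted difference of 0.03 ± 0.52 in total RNA left room for sizeable changes in either direction. With the replicate number as a block the fitted difference was 0.02 ± 0.24. Dll1, a Delta ligand that sustains signalling between myogenic cells, was at 47.3 and 37.3 CPM in WT total RNA and at 87.4 and 37.7 CPM in AUF1 total RNA. Only replicate 1 differed, by 0.89 on the log2 scale, while replicate 2 differed by 0.01. The fitted Dll1 difference was 0.56 ± 0.58 in total RNA (adjusted p 0.779) and 0.43 ± 0.57 on polysomes.

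**Figure D2:**
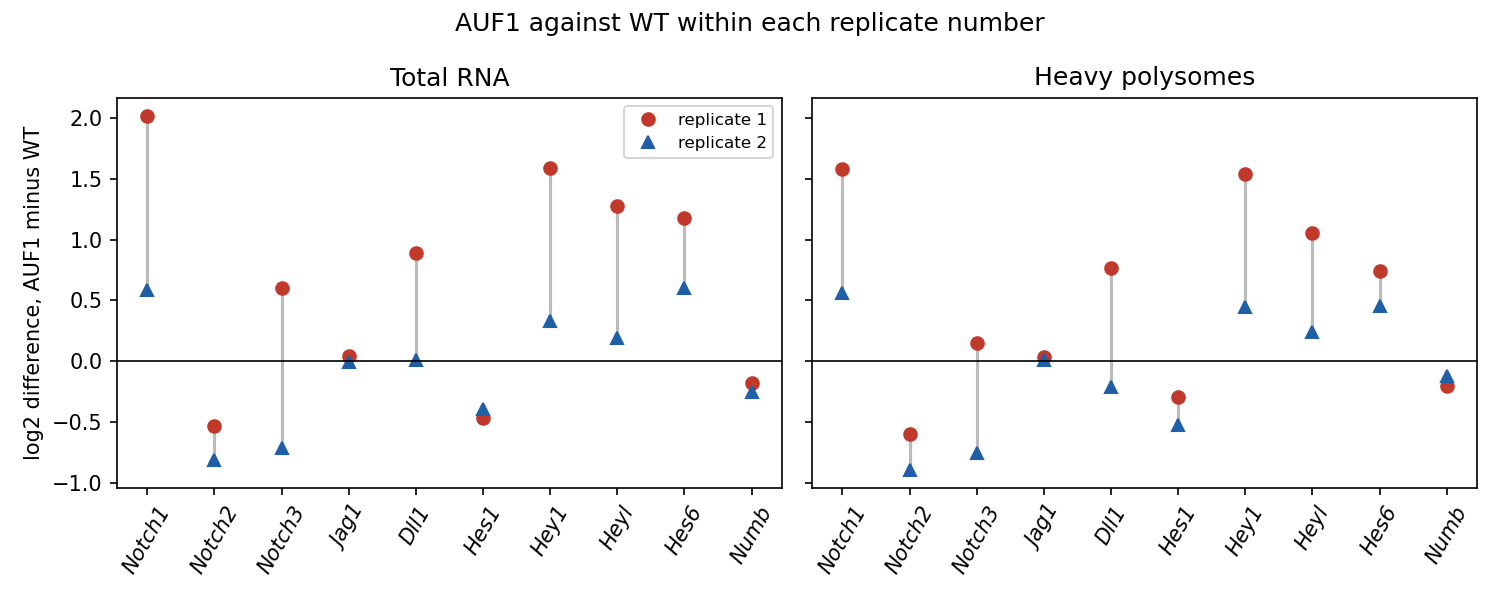
Log2 difference between the AUF1 and the WT library of the same replicate number for each gene, in total RNA (left) and heavy polysomes (right), with circles for replicate 1 and triangles for replicate 2 joined by a line. Notch1, Hey1, Heyl and Hes6 were above 0 and Notch2, Hes1 and Numb below 0 at both numbers in both panels, while Notch3 crossed 0 in both, and the Notch1 points in total RNA lie at 2.02 and 0.58.

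The target genes lay on both sides of WT, with Hey1 and Heyl higher and Hes1 lower in the AUF1 libraries of total RNA. Hey1, a basic helix-loop-helix repressor that Notch induces in satellite cells, was at 8.95 and 9.94 CPM in WT total RNA and at 27.0 and 12.5 CPM in AUF1 total RNA. Both AUF1 libraries were above WT, by 1.59 on the log2 scale in replicate 1 and 0.33 in replicate 2. The fitted difference was 1.07 ± 0.46 in total RNA and 1.04 ± 0.46 on polysomes, each with an adjusted p of 0.391. Heyl, the third Hey-family gene and also a marker of quiescent satellite cells, had 47.9 and 46.9 CPM in WT total RNA against 116 and 53.6 CPM in AUF1 total RNA. Its log2 difference was 1.28 within replicate 1 and 0.19 within replicate 2, so that the second AUF1 library lay only just above WT. The fitted Heyl difference was 0.84 ± 0.41 in total RNA (adjusted p 0.45) and 0.65 ± 0.41 on polysomes (adjusted p 0.583).

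Hes1, the repressor most widely used as a readout of Notch activity, was at 96.8 and 84.6 CPM in WT total RNA and at 70.1 and 64.6 CPM in AUF1 total RNA. Its 2 AUF1 libraries lay below both WT libraries, and the log2 difference was similar at both numbers, -0.47 in replicate 1 and -0.39 in replicate 2. The fitted value was -0.43 ± 0.30 with an adjusted p of 0.621. On polysomes Hes1 was at 154 and 119 CPM in WT and 126 and 83.1 CPM in AUF1, where replicate 1 of AUF1 exceeded replicate 2 of WT and the groups overlapped. The fitted polysome difference of Hes1 was -0.39 ± 0.30 (adjusted p 0.683).

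Hes6 is a Hes-family protein that counters Hes1 and that promotes myogenic differentiation. It was at 207 and 197.5 CPM in WT total RNA and at 469 and 300.0 CPM in AUF1 total RNA, and both AUF1 libraries were well above WT. The log2 difference was 1.18 in replicate 1 and 0.60 in replicate 2, and the fitted value was 0.93 ± 0.31 with an adjusted p of 0.255. On polysomes Hes6 was at 228 and 317 CPM in WT and 379.8 and 434 CPM in AUF1, with a fitted difference of 0.58 ± 0.31 (adjusted p 0.485). With the block, edgeR's test gave Hes6 0.92 ± 0.28 (adjusted p 0.059) in total RNA and 0.58 ± 0.28 (adjusted p 0.209) on polysomes. Neither was called. The summed level of the 5 myotube markers (Myh3, Ckm, Acta1, Tnnt3 and Actn2) was also higher in AUF1 cells, at 1802 and 2698 CPM in WT total RNA and 16780 and 15820 CPM in AUF1 total RNA. Of these markers 3 of 5 rose in total RNA by the unblocked edgeR test, against 0.82% of all genes called higher. On polysomes their sum was 1607 and 2998 CPM in WT against 12340 and 16300 CPM in AUF1, but 0 of 5 passed the unblocked edgeR test. By that test 5 of 5 had an unadjusted p under 0.05, against 1862 of all 13167 genes. DESeq2 called 5 of 5, against 6.5% of all genes. The 6 tested fibroblast markers all had lower fitted values in AUF1 cells without the block in both kinds of RNA, with a median log2 difference of -1.69 in total RNA and -1.97 on polysomes. The unblocked edgeR test called 0 of these 6 in each. By that test 3 of the 6 had an unadjusted p under 0.05 in each, against 1807 and 1862 of all 13167 genes. DESeq2 called 3 lower in each, against 2.75% and 2.86% of all genes. With the block, 3 fell in total RNA and 4 on polysomes, against 6.15% and 6.33% of all genes. The part of myotube or fibroblast marker content in the genotype differences of the 10 genes was not tested.

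Numb was at 36.7 and 48.6 CPM in WT total RNA and at 32.4 and 40.8 CPM in AUF1 total RNA. The AUF1 library was the lower at both numbers in both kinds of RNA, by 0.12 to 0.25 on the log2 scale, and the groups overlapped. The fitted difference was -0.22 ± 0.28 in total RNA (adjusted p 0.844) and -0.16 ± 0.28 on polysomes. Replicate 2 was the higher library of Numb in all 4 groups, as it was for 21.8% of all genes.

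The second question was whether AUF1 changed how far an mRNA was loaded on polysomes beyond its change in total RNA, which is the interaction of genotype and fraction. No gene passed: 0 of the 10 and 0% of all genes had an adjusted p under 0.05 by edgeR's quasi-likelihood test. By the same test 0 of the 10, and 16 of all 13167 genes, had an unadjusted p under 0.05. DESeq2 called 0 of the 10 and 0% of all genes. The interaction ranged from -0.41 on the log2 scale for Notch3 to 0.06 for Numb, against a median of -0.02 over all genes. For Notch1 it was -0.24, and for Hes6 -0.35.

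Heavy polysomes were also compared with total RNA within each genotype. The polysome libraries of Hes1 lay above both total RNA libraries in WT, by 0.67 and 0.49 on the log2 scale in replicates 1 and 2, and in AUF1, by 0.84 and 0.36. The fitted difference was 0.59 ± 0.30 in WT and 0.63 ± 0.30 in AUF1, each with an adjusted p of 1. In WT, Notch1 and Hes6 also had polysome libraries above both total RNA libraries, at 0.31 and 0.43 on the log2 scale, and 13% of all genes did so. In AUF1 cells Hes1 alone of the 10 genes did, against 8.86% of all genes. By edgeR's quasi-likelihood test 0 of the 10 genes and 0% of all genes were called in either genotype. At an unadjusted p under 0.05 that test gave 0 of the 10, against 364 of all 13167 genes in WT and 438 in AUF1. DESeq2 gave an adjusted p for 7 of the 10 in WT and 9 of the 10 in AUF1, leaving out Hey1 in both and Jag1 and Numb in WT. It called 0 of these, against 0.22% and 0.197% of all 13167 genes, of which 7403 in WT and 4595 in AUF1 had no adjusted p. The edgeR test with the block called 0 of the 10, against 0.0152% in each genotype. Notch3 was the gene with the lowest polysome-to-total difference in both genotypes, at -0.34 in WT and -0.75 in AUF1, with its libraries overlapping in each.

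**Figure D3:**
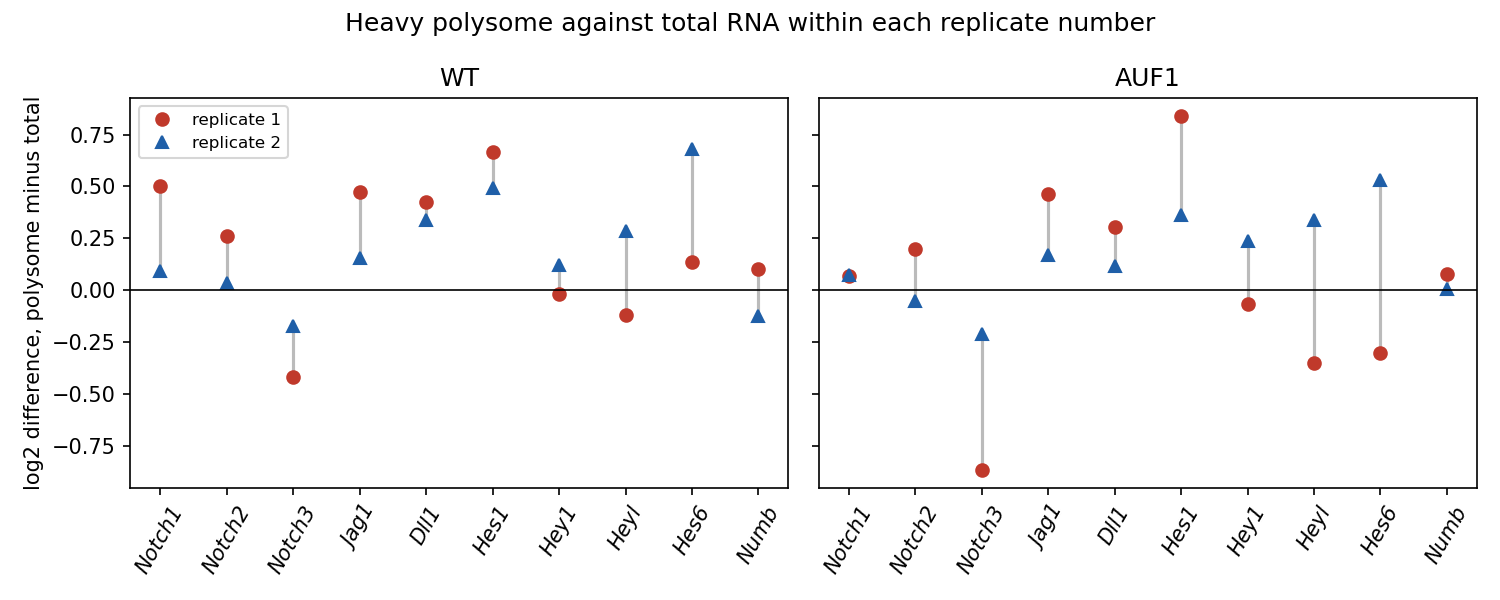
Log2 difference between the heavy polysome and the total RNA library of the same replicate number for each gene, in WT (left) and AUF1 cells (right), with circles for replicate 1 and triangles for replicate 2 joined by a line. Notch1, Jag1, Dll1 and Hes1 lay above 0 and Notch3 below 0 at both numbers in both panels, and Hes1 was at 0.67 and 0.49 in WT and at 0.84 and 0.36 in AUF1.

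The receptors and ligands differed between the replicate numbers. All 3 receptors and both ligands were higher in replicate 1 by a test of the replicate number in the blocked fit, which was added after the data were seen, which makes 5 of the 10 genes called, against 29.8% of all genes called in either direction, 20.8% higher and 8.98% lower. Notch3 gave the largest difference, 1.70 ± 0.26 on the log2 scale (adjusted p 0.000724 by edgeR's quasi-likelihood test). Its replicate 1 level exceeded that of replicate 2 in every group, by 2.42-fold in WT total RNA, 6.03-fold in AUF1 total RNA, 2.04-fold in WT polysomes and 3.82-fold in AUF1 polysomes. Jag1 rose in replicate 1 by 0.82 ± 0.17 (adjusted p 0.00532) and Dll1 by 0.85 ± 0.22 (adjusted p 0.0169). For Notch1 the value was 0.80 ± 0.26 (adjusted p 0.0412) and for Notch2 0.56 ± 0.15 (adjusted p 0.0224). The ratio of replicate 1 to replicate 2 of Notch1 was 2.67 in AUF1 total RNA and 0.989 in WT total RNA. The targets and Numb were not called, with values of 0.32 for Hes1, 0.38 for Hey1, 0.30 for Heyl, 0.01 for Hes6 and -0.29 for Numb. These values average over the genotypes. Replicate 1 of Hey1 was higher by 1.11 in AUF1 total RNA and 0.80 on AUF1 polysomes, but differed by -0.15 and -0.29 in WT. For Heyl the values were 1.12 and 0.43 in AUF1, but 0.03 and -0.37 in WT. For Notch1 they were 1.42 and 1.41 in AUF1, but -0.02 and 0.39 in WT. Only Notch3 and Jag1 kept their call whichever library was left out. The Notch2 call was lost when any 1 WT library or either AUF1 polysome library was left out. The Notch1 call was lost when any 1 AUF1 library was left out, and that of Dll1 without either AUF1 polysome library. Across these fits the difference was 0.53 to 1.07 for Notch1 and 0.40 to 0.64 for Notch2.

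Genes of receptor processing shared this direction. The receptor cleavage list holds the ADAM proteases, the furin convertase and the gamma-secretase subunits. All 10 of its tested genes were higher in replicate 1, with a median of 1.73 on the log2 scale. They were also higher in every group, as were 26% of all genes. Examples chosen after their values were seen are Psen2 and Ncstn, subunits of gamma-secretase, at 2.94 ± 0.18 and 2.57 ± 0.18. Of 5 genes for glycosylation of the receptor 3 were higher, among them the O-fucosyltransferase Pofut1 at 2.60 ± 0.18, also chosen after its value was seen. Of all genes, 20.8% were called higher in replicate 1. Of 8 genes of the nuclear activation complex, 0 were called higher and 2 lower in replicate 1, among them Kat2b at -0.77, against 8.98% of all genes called lower. The median of the 8 was -0.48. By group, all 8 were lower in replicate 1 in WT and AUF1 total RNA, with medians of -0.77 and -0.93, whereas on polysomes 3 of 8 were higher in WT and 2 of 8 in AUF1, with medians of -0.06 and -0.23. Of 7 fibroblast markers 6 were tested, and all 6 were higher in replicate 1 in every group, as were 26% of all genes. Pdgfra was nearly level in AUF1 total RNA, at 3.71 and 3.70 CPM. The summed level of the 7 markers was 1143 CPM in replicate 1 and 219.7 CPM in replicate 2 of WT total RNA. In AUF1 total RNA it was 478 and 91.0, in WT polysomes 1392 and 242, and in AUF1 polysomes 229 and 98.1. Col1a1 alone was at 741 and 152 CPM in WT total RNA. The part of these markers in the differences of the receptors, ligands and processing genes was not tested.

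**Figure D4:**
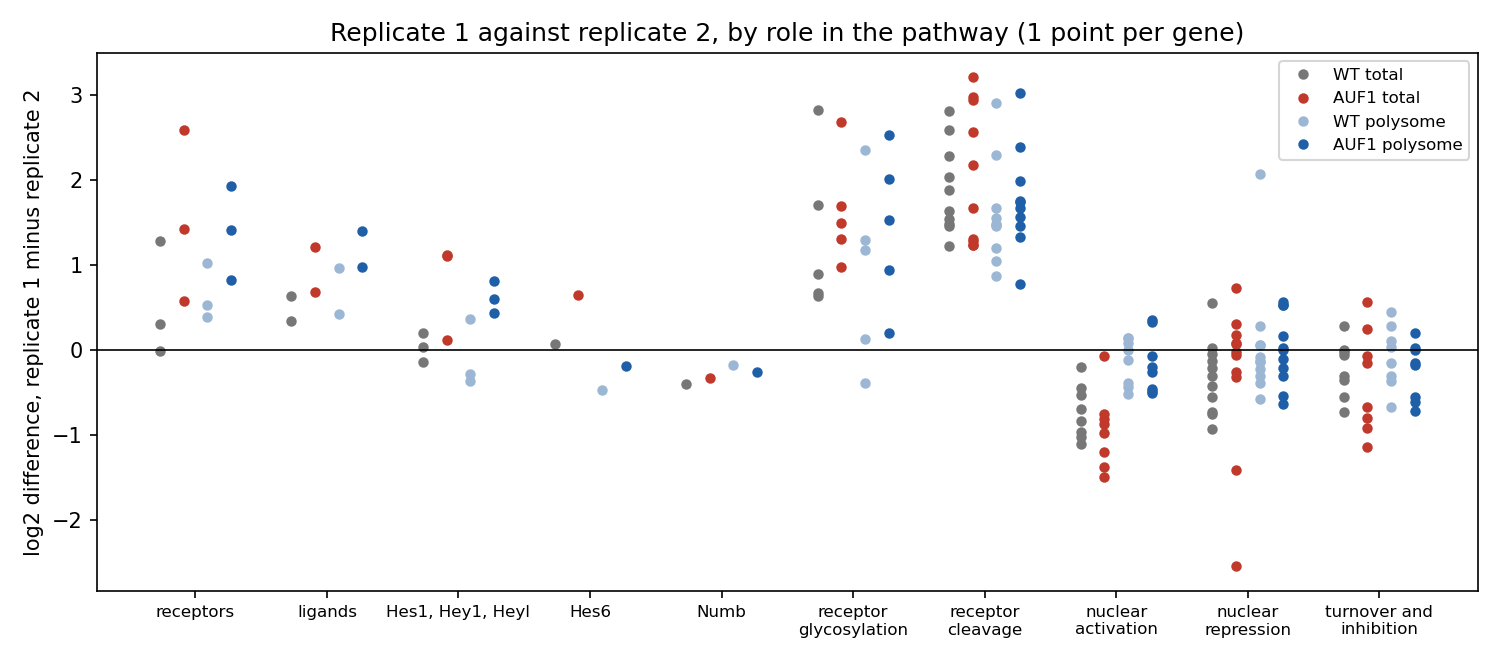
Log2 difference between replicate 1 and replicate 2 in each of the 4 groups, with 1 point per gene, for the receptors, ligands, targets, Hes6 and Numb and for 5 lists of other pathway genes. All 10 receptor cleavage genes lay above 0 in all 4 groups, with medians from 1.47 to 1.92. Of all tested genes, 26% lay above 0 and 21.8% below 0 in all 4 groups. All 8 nuclear activation genes lay below 0 in both total RNA groups, but 3 lay above 0 in WT polysomes and 2 in AUF1 polysomes.

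Beyond the 10 genes, 60 other genes of the pathway were listed, of which 50 passed the filter. In the comparison of AUF1 with WT, 0 of the 50 were called by edgeR's unblocked test in total RNA and 0 on polysomes. By that test 2 and 5 of the 50 had an unadjusted p under 0.05, against 1807 and 1862 of all 13167 genes. The median log2 difference of the 50 was -0.11 and -0.12. With the replicate number as a block, 2 rose and 3 fell in total RNA, and 2 rose and 2 fell on polysomes, in fits that called 13.1% and 13% of all genes. The most marked fall was in Lfng, a glycosyltransferase that modifies Notch receptors and alters their response to ligands. Lfng was at 37.5 and 20.1 CPM in WT total RNA and at 14.5 and 5.11 CPM in AUF1 total RNA, and on polysomes at 40.7 and 17.9 in WT and 10.5 and 3.61 in AUF1. The AUF1 libraries lay below both WT libraries in both kinds of RNA. The blocked log2 difference was -1.68 ± 0.27 (adjusted p 0.00379) in total RNA and -2.12 ± 0.27 (adjusted p 0.0014) on polysomes. The call in total RNA was lost without replicate 2 of WT total RNA (log2 -1.42, adjusted p 0.0615), and the call on polysomes was kept whichever library was left out. The other Fringe gene that was called, Mfng, was near the limit of detection, with 1 and 0 counts in WT total RNA and 47 and 17 counts in AUF1 total RNA. It was no longer called in total RNA without replicate 1 of WT total RNA (adjusted p 0.0827), nor on polysomes without replicate 1 of WT polysomes (0.202) or without replicate 1 (0.124) or replicate 2 (0.0665) of AUF1 polysomes.

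Neurl1a, a ubiquitin ligase of the Neuralized family that acts on ligand endocytosis, rose under the block and by DESeq2 in both kinds of RNA. It was at 138 and 153 CPM in WT total RNA and at 506 and 375.5 CPM in AUF1 total RNA, which is 3.66-fold within replicate 1 and 2.46-fold within replicate 2. Its blocked log2 difference was 1.61 ± 0.26 (adjusted p 0.00378) in total RNA and 1.47 ± 0.25 (adjusted p 0.00585) on polysomes, and the unblocked adjusted p was 0.0709 and 0.0916. The blocked call of Neurl1a was lost in total RNA without replicate 1 (adjusted p 0.0966) or replicate 2 (0.0518) of WT total RNA, and on polysomes without replicate 2 of AUF1 polysomes (0.0509). A further 3 genes were called lower in 1 kind of RNA under the block, namely the ligand-like gene Dlk2 in total RNA at -1.60 ± 0.45 (adjusted p 0.045), the acetyltransferase gene Kat2b in total RNA at -0.96 ± 0.27 (adjusted p 0.0465) and the Groucho-family corepressor Tle2 on polysomes at -0.96 ± 0.26 (adjusted p 0.0417). Their adjusted p was over 0.05 whichever library was left out for Dlk2, without either WT total RNA library, replicate 1 of AUF1 total RNA or replicate 1 of AUF1 polysomes for Kat2b (0.0531 to 0.267), and without any WT library or either AUF1 polysome library for Tle2 (0.0627 to 0.213). DESeq2 without the block called Neurl1a and Mfng in both kinds of RNA and Tle2 on polysomes.

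The remaining genes of interest were not called in any comparison of AUF1 with WT. Rbpj, the DNA-binding partner of the receptor domain, was at 19 and 26.0 CPM in WT total RNA and 10.8 and 21.4 CPM in AUF1 total RNA, a log2 difference of -0.48 ± 0.41. The ligand Jag2 was at 42.3 and 26.4 CPM in WT total RNA and 109.7 and 34.8 CPM in AUF1 total RNA, with overlapping groups. Its AUF1 library was the higher at both numbers, by 1.37 and 0.40 on the log2 scale in total RNA and by 1.06 and 0.23 on polysomes. Nrarp, a target gene whose product dampens Notch signalling, differed by 0.54 ± 0.34 in total RNA and 0.86 ± 0.34 on polysomes. Pax7, the transcription factor of satellite cells and a gene linked to Notch in these cells, differed by 1.22 ± 0.41 in total RNA (adjusted p 0.257) and 1.06 ± 0.41 on polysomes. The list of satellite cell targets that holds Pax7 had 5 tested genes, of which 2 lay above 0 in each kind of RNA, with a median of -0.15 in total RNA and -0.41 on polysomes. The endothelial-type receptor Notch4 stayed between 0.0702 and 0.631 CPM, and the ligand Dll4 did not exceed 0.222 CPM and was not tested.

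For each of the 10 genes the most alike gene was sought by Pearson correlation of log2 CPM over the 8 libraries, which share genotypes, fractions and replicate numbers. Among the 10 themselves, Heyl had Hey1 as its closest gene, at r = 0.975. Notch1 was closest to Cldn4 (r = 0.987), and its correlation with Hey1 was 0.955. The others were closest to genes outside the pathway, namely Cmtm4 for Notch2, Ddx31 for Notch3, Bfar for Jag1, Vegfa for Dll1, Dusp6 for Hes1, Kcnc1 for Hey1, Hn1 for Hes6 and Gm6634 for Numb. These values ranged from 0.959 for Hes1 to 0.995 for Hes6 and describe 8 libraries in 4 groups.

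The gene models place Notch1 at chr2:26457903-26516663 and Jag1 at chr2:137081456-137116644, and Notch2 at chr3:98013527-98150361, Notch3 at chr17:32120820-32166852 and Dll1 at chr17:15367354-15376872 in mm10. Hes1 lies at chr16:30064384-30067796, Hey1 at chr3:8663359-8667256, Heyl at chr4:123233556-123249875, Hes6 at chr1:91411483-91414038 and Numb at chr12:83794034-83921934. Exons of other annotated genes cover 20.5% of the Dll1 exons, on the opposite strand, and smaller shares of Notch1, Notch2, Notch3 and Numb. The Notch2 overlap, 5.02% of its exon length, is on the same strand, where no strand setting would separate the reads. The other overlaps are on the opposite strand. No source used here gives the strand setting of the counting, so whether reads there were assigned to a gene cannot be told either. A summary line for ambiguous reads, kept out of the gene counts, held 0.254% to 0.389% of counts. Reads from the overlaps may therefore be missing from these genes, which was not tested.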

How the data were processed

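The authors deposited raw counts, 1 column per library and 1 line per gene symbol, followed by 5 summary lines. Of the tools used upstream, the submitters' processing notes list STAR, Bowtie, cutadapt, Trimmomatic and SAMtools, with mm10 as the build. No source used here gives their versions, the counting program, its strand setting or the annotation. Summary lines stayed out of totals and tests, and reads outside any gene were 6.04% to 7.23% of counts. Replicates carry the numbers 1 and 2 of the sample titles, although the description of the second reads Rep3.

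Genes were kept by filterByExpr and scaling was by TMM (edgeR's trimmed mean). Quasi-likelihood models with 1 coefficient per group were fitted in edgeR 4.0.16 (R 4.3.3). Tests were two-sided with Benjamini-Hochberg adjustment over all genes of a comparison, and an adjusted p under 0.05 was called. CPM are TMM-scaled, within-number log2 differences use a prior count of 2, and SD is over 2 libraries. Alternatives were DESeq2 1.42.0, other size factors, filters and samples, a replicate block, and leaving out each library. The block with a library left out and the test of the replicate number were added after the data were seen. The fits were tested on simulated data.

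The members and lists were chosen with earlier results of these data known. The text names all 10 members, other pathway genes called with or without the block, 7 further genes whatever their result (Rbpj, Notch4, Dll4, Jag2, Nrarp, Lfng and Pax7), and the gene most like each member. Differences between replicates 1 and 2 were alike across groups (r from 0.62 to 0.81 over 13167 genes). The numbers were still not treated as pairs in the main test, because there are only 2 and the labels do not say what same-numbered libraries share. That test therefore leaves the difference between the numbers in its estimate of the spread.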

Additional observations from a re-analysis of the deposited data

How the results depend on the processing

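With the replicate block, 1 of the 10 genes was called in total RNA instead of 0, Notch1 at a log2 difference of 1.28, and the block changed no other call of the 10 genes. The numbers were not shown to pair the samples. When 1 library was left out of the blocked fit, 0 to 4 of the 10 genes were called in total RNA, where 2.42% to 21.9% of all genes were, 0 to 3 on polysomes (4.37% to 22.2%) and 0 to 1 in AUF1 polysome against total RNA (0% to 8.34%). The highest counts were Notch1, Hey1, Heyl and Hes6 without AUF1 total replicate 2 (21.9% of all genes), Notch1, Notch2 and Hey1 on polysomes without AUF1 total replicate 1 or 2 (22.2% and 20.6%), and Notch3 without AUF1 total replicate 2 (8.34%). The test of the replicate number gave 2 to 4 instead of 5 (19.1% to 31.2% of all genes). Without the block, 0 were called in each of these fits. Values near 0 changed sign: Jag1 in total RNA to -0.0400 with DESeq2 and -0.0401 with RLE size factors, the Hey1 interaction to 0.0316 and 0.0313 with the same, the Jag1 interaction to -0.00542 with a stricter count filter, Jag1 on polysomes to -0.0245 with only the 4 libraries compared, and Notch3 in total RNA to -0.00205 with the block. Of 50 differences, 30 changed sign without 1 of the 8 libraries; the cause was not tested. Their lowest to highest log2 values in total RNA were Notch3 -1.53 to 1.10, Jag1 -0.40 to 0.33 and Dll1 -0.21 to 1.05, and on polysomes Notch3 -1.36 to 0.54, Jag1 -0.54 to 0.58 and Dll1 -0.44 to 0.93. The interactions were Notch1 -1.11 to 0.63, Notch2 -0.53 to 0.35, Notch3 -1.68 to 1.40, Jag1 -0.57 to 0.56, Dll1 -1.0 to 0.59, Hes1 -0.28 to 0.36, Hey1 -0.48 to 0.62, Heyl -0.64 to 0.45 and Numb -0.16 to 0.27. Polysome against total RNA in WT gave Notch2 -0.12 to 0.40, Notch3 -0.94 to 0.43, Jag1 -0.20 to 0.76, Hey1 -0.10 to 0.20, Heyl -0.11 to 0.27 and Numb -0.20 to 0.20. In AUF1 cells it gave Notch1 -0.80 to 0.96, Notch2 -0.37 to 0.54, Notch3 -2.02 to 1.08, Jag1 -0.21 to 0.85, Dll1 -0.62 to 1.0, Hey1 -0.42 to 0.71, Heyl -0.55 to 0.58, Hes6 -0.20 to 0.44 and Numb -0.12 to 0.21. In total RNA the unblocked Notch1 difference ranged from 0.54 to 2.01 without 1 library. The count of all genes called in total RNA was 1.02% without the block, 13.1% with it and 6.72% by DESeq2, and on polysomes 0.349%, 13% and 6.5%. The interaction could not be fitted with only the libraries of 1 fraction. The 10 genes had 221 to 13383 counts in a library; how far counting error contributes to their standard errors was not tested.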
